A study of Mus musculus with 16 samples.

Results

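Metabotropic glutamate receptors are the G protein-coupled receptors of glutamate. The set described here held 6 of their genes, Grm2, Grm3, Grm4, Grm5, Grm7 and Grm8, taken by symbol from the 20841 genes of the deposited table, and all 6 were found. The members were chosen by their CPM, the read count of a gene scaled to the total of its library, as measured in all 4 groups of these libraries, so their differences by genotype and age are given as a description. An adjusted p printed for one of the 6 gives its place in a fit over all genes and is not independent evidence. Grm6, which was not in the set, is given beside it.

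PolyA RNA came from right-hemisphere cortex of mice at postnatal day 0 (P0) and postnatal day 7 (P7). At each age there were 4 control libraries and 4 cKO libraries, in which the forkhead transcription factor gene Foxp1 was conditionally knocked out, so 16 libraries in all. The labels call the knockout forebrain-specific and name neither the Cre driver, the strain nor the controls' alleles. From general knowledge of the study, and not from the sources used here, the driver was Emx1-Cre, which is active in the progenitors of cortical excitatory neurons and of cortical glia and not in those of cortical interneurons, so interneurons are expected to keep the gene. Every P0 library was read on a BGISEQ-500 at BGI and every P7 library on an Illumina instrument at another centre, so age and sequencing platform cannot be told apart. Nothing in the labels says that the 4 libraries of a group came from separate animals, and the p-values measure the spread between these libraries only.

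The receptors fall into 3 groups by sequence and signalling. Group I, to which Grm5 belongs, couples to Gq proteins and phospholipase C, sits mostly after the synapse and is tied to Homer scaffolds. Group II (Grm2 and Grm3) and group III (Grm4, Grm6, Grm7 and Grm8) couple to Gi and Go proteins, which lower cyclic AMP, and many of them act before the synapse as brakes on transmitter release. Grm3 and Grm5 are also known from astrocytes, and Grm6 from the retina.

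Grm2 and Grm8 were the members with the largest fold change between genotypes, Grm2 at P7 and Grm8 at P0, and their promoters are shown for that reason. Of the 6 members, 4 had a start site in the RefSeq promoter table (GRCm38.p6). Each line gives the 250 bases before the start, 5′ to 3′ on the gene's strand, for Grm2 at chr9:106656110-106656359 (minus strand) and for the most upstream of the Grm8 starts at chr6:28135147-28135396 (minus strand). Capitals mark GC boxes, the letters GGGCGG on either strand, counted with overlaps.
Grm2: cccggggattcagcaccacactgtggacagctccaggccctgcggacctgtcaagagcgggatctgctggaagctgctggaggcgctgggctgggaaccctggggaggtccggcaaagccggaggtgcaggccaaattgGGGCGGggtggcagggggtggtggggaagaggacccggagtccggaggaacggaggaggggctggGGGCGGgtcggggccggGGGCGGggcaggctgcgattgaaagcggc
Grm8: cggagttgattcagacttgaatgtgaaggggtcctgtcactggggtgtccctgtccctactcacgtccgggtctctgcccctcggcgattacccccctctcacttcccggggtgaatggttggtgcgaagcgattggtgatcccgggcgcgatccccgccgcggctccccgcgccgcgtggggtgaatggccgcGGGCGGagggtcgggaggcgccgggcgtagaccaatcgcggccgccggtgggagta
The Grm2 window held 3 GC boxes and 71.2% G or C, and the Grm8 window 1 GC box and 68.4%, against a median of 52.4% over all 32851 windows, of which 32.7% held a GC box. The forkhead core letters TGTTTA, searched on both strands, were in neither window and were in 12.03% of all windows. Of the other Grm8 start windows, the one at chr6:28126427-28126676 held 1 such core and the one at chr6:28134422-28134671 held 0.

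The targeted gene checked the labels. Foxp1 ran from 273 to 364 CPM in P0 controls and from 131 to 182 CPM in P0 cKO cortex, and at P7 from 375 to 539 CPM against 162 to 246 CPM, so the genotypes did not overlap at either age (exact two-sided permutation p = 0.0286 at each age with n = 4 per group, the smallest this design can give). The library total behind the CPM was 17957490 to 18232943 reads at P0 and 9858296 to 15335738 reads at P7. On the first principal component of the P0 libraries, which held 46.5% of their variance, control libraries 2 and 6 stood apart at 38.1 and 19.5, while the other 6 lay from -17.9 to -0.443. For some of the values that use these 2 libraries, but not all, the value without them is given too.

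The receptor genes ran over a wide range of levels, and their order was not the same at the 2 ages. Per kilobase of exon, which allows genes to be compared, the mean level in P0 control cortex was 20.6 ± 2.14 CPM per kb for Grm3, 14.8 ± 2.85 for Grm5, 9.08 ± 1.21 for Grm2, 7.24 ± 1.72 for Grm7, 0.937 ± 0.062 for Grm8 and 0.825 ± 0.336 for Grm4 (SD, n = 4). In that order the library ranges of the neighbours Grm2 and Grm7, and of Grm8 and Grm4, overlapped. In P7 control cortex Grm7 stood first at 119 ± 5.39 CPM per kb, followed by Grm5 at 84.6 ± 4.55, Grm3 at 84.3 ± 4.38, Grm8 at 6.93 ± 0.331, Grm2 at 3.59 ± 0.353 and Grm4 at 2.30 ± 0.142 (SD, n = 4). Here only the ranges of Grm5 and Grm3 overlapped. Exon lengths are those of all annotated exons joined, from 3.05 kb for Grm3 to 10.2 kb for Grm5, and a gene whose long forms are not used in cortex is understated. In whole cortex, fewer cells of a type and less RNA per cell cannot be told apart.

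Expressed as shares of the summed CPM per kb of the 6 members, Grm2 and Grm3 together made up 53.5% to 57.5% in the P0 control libraries and 28.1% to 30.1% in the P7 control libraries. Grm4, Grm7 and Grm8 together went the other way, from 15.5% to 20.1% at P0 to 41.4% to 44.6% at P7. Grm5 was at 24.0% to 31.0% and 27.3% to 28.9%. Most of the change in group III was in Grm7, whose mean share was 13.5% in P0 and 39.6% in P7 control cortex, and most of that in group II was in Grm2, with 17.0% and 1.20%. In cKO cortex Grm5 held 31.1% to 33.7% at P0, just above every P0 control library, and 27.1% to 32.3% at P7, which overlapped the controls. The share of Grm8 was 1.05% to 1.44% in P0 cKO against 1.65% to 1.97% in P0 control libraries, below the controls. At P7 its share was 2.55% to 3.10% against 2.14% to 2.46%, above the controls, while its own CPM overlapped between genotypes. The summed CPM per kb of the 6 members was 258 to 282 in P7 cKO and 291 to 316 in P7 control libraries, without overlap, and overlapped at P0. These shares have no counterpart over all genes, so their separation has no background rate beside it.

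**Figure D1:**
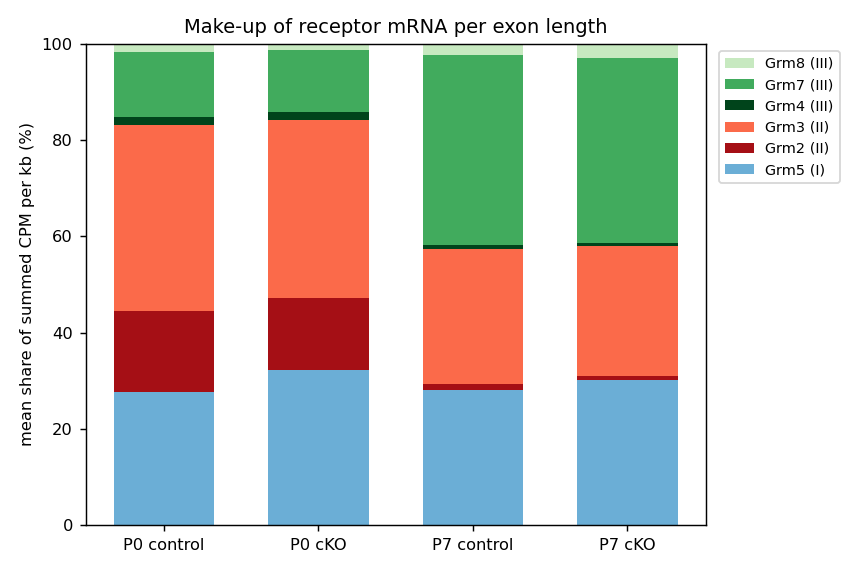
Stacked bars give the mean share (n = 4 libraries) of each of the 6 members in their summed CPM per kb of exon (%), for the 4 groups of libraries. Grm7 took a mean of 13.5% in P0 control and 39.6% in P7 control cortex, and Grm2 17.0% and 1.20%.

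Between P0 and P7 control cortex, 5 of the 6 members were higher at P7 and Grm2 was lower, and the 2 ages did not overlap for any of the 6. Over the 13444 genes tested, limma called 82.5% between the ages, 35.1% higher and 47.3% lower, and for 74.4% the ages did not overlap, so such a difference was the usual case. Grm7, a presynaptic receptor of the active zone with low affinity for glutamate, read 31.7, 56.0, 39.6 and 43.3 CPM in P0 controls 1, 2, 5 and 6, against 718, 663, 734 and 687 CPM in P7 controls 43, 45, 46 and 47. Its mean was 16.4 times as high at P7, the steepest rise of the set, with a log2 fold change of 4.03 (SE 0.12, limma adjusted p = 1.9e-17). Grm8 was 7.39 times, Grm5 5.72 times, Grm3 4.10 times and Grm4 2.79 times as high at P7 as at P0. For Grm4 the log2 difference of 1.38 was 0.96 without P0 control libraries 2 and 6. Grm2 fell from 44.4 ± 5.92 to 17.6 ± 1.73 CPM (SD, n = 4), a log2 fold change of -1.28 (SE 0.13, limma adjusted p = 8.5e-09). The median log2 difference of all genes was -0.19 on the deposited scale and 0.03 after scaling by medians of ratios, and the differences of the 6 members are larger than that shift. Some markers ran against age in a way that bears on such comparisons. The myelin gene Mog, known to come on after birth, lay between 19.5 and 40.0 CPM in the P0 libraries and under 1 CPM in every P7 library, and the microglia gene P2ry12 was listed at 0 in every P0 library and reached 42.9 CPM at P7.

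In cKO cortex the direction from P0 to P7 was as in the controls for each member, and the ages did not overlap there either. Grm7 was 13.8 times, Grm8 11.1 times, Grm5 4.38 times, Grm3 3.41 times and Grm4 1.97 times as high at P7. Grm2 in cKO cortex at P7 was at 0.246 of its P0 level, against 0.396 in controls. These ratios of means are descriptions, and the test of the difference between genotypes follows further on.

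**Figure D2:**
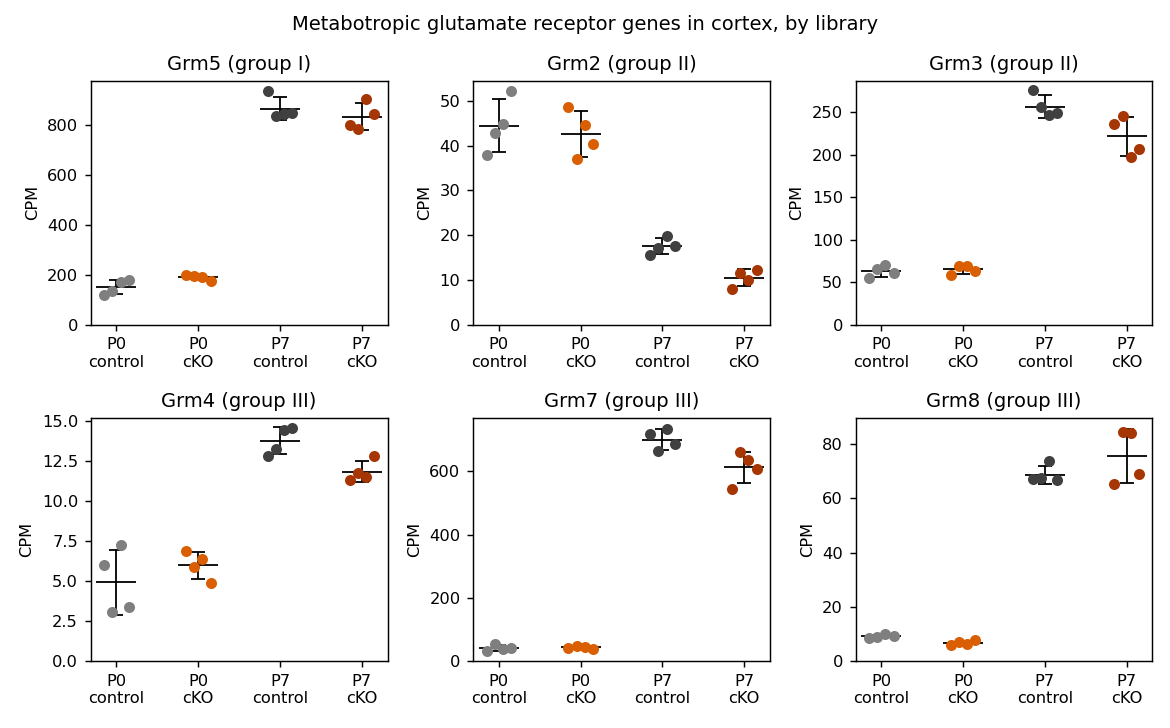
Each point is the CPM of 1 library for a receptor gene, in 4 groups of 4 libraries, with the mean (long bar) and SD (whiskers); each vertical axis starts at 0 and has its own scale. Grm2 is the member with lower values at P7 than at P0, and at P7 its cKO libraries lie at 8.09 to 12.3 CPM, below all controls.

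At P7 the question was which receptor transcripts differ with Foxp1 once synapses are being made. Grm2, known as an autoreceptor that limits glutamate release, read 15.7, 17.2, 19.8 and 17.6 CPM in controls 43, 45, 46 and 47, against 8.09, 11.6, 10.1 and 12.3 CPM in cKO libraries 41, 42, 44 and 48. All 4 cKO values lay below all 4 control values. The mean fell from 17.6 ± 1.73 to 10.5 ± 1.86 CPM (SD, n = 4), to 59.7% of the control level, with a log2 fold change of -0.70 (SE 0.12, 95% interval -0.97 to -0.44, limma adjusted p = 0.00386). These values rest on 121 to 255 reads per library. It was the only 1 of the 6 members called at P7, where 3.72% of the 12828 genes tested were called, and it was called under every alternative run. On the opposite strand the predicted gene Gm28111 covers 9.6% of the exon bases of Grm2, and 8.53% of its 50-base stretches occur in other genes. Whether reads were counted by strand is not given in the sources used here, so a small part of the Grm2 reads is uncertain.

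The other group II gene, Grm3, read 276, 257, 247 and 249 CPM in the P7 controls, against 236, 246, 198 and 207 CPM in cKO cortex. The groups did not overlap, by a margin of less than 1 CPM between the highest cKO and the lowest control library. Its log2 fold change was -0.22 (SE 0.07, 95% interval -0.36 to -0.07) and it did not pass (limma adjusted p = 0.107). It passed without cKO library 42, at a limma adjusted p of 0.0356, after scaling by medians of ratios, at 0.0353, and by edgeR and DESeq2, at 0.0412 and 0.00926. In the other 13 of 17 alternatives Grm3 did not pass, with a limma adjusted p of up to 0.382. The CPM of Grm3 was 12.4 to 17.6 times that of Grm2 in P7 control and 16.9 to 29.2 times in P7 cKO libraries, with the groups overlapping, and 1.16 to 1.86 times over all P0 libraries.

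Among the group III genes at P7, Grm7 read 718, 663, 734 and 687 CPM in controls, against 545, 660.0, 636 and 609 CPM in cKO cortex. The highest cKO library lay just below the lowest control. The log2 fold change was -0.20 (SE 0.06, 95% interval -0.32 to -0.07, limma adjusted p = 0.0866), and it passed without cKO library 42, at an adjusted p of 0.0422, and by DESeq2, at 0.0269. Grm4, best known from the terminals of cerebellar granule cells, read 12.8, 13.3, 14.4 and 14.5 CPM in controls, against 11.3, 11.8, 11.5 and 12.8 CPM in cKO cortex. Its groups were set apart by less than 0.1 CPM, and its log2 fold change was -0.20 (SE 0.09, limma adjusted p = 0.349). For Grm8 the controls read 67.0, 67.2, 73.5 and 66.6 CPM and the cKO cortex 65.1, 84.2, 84.0 and 68.8 CPM. Here the cKO libraries reached both below and above the controls, with a log2 fold change of 0.13 (SE 0.08, 95% interval -0.04 to 0.30, limma adjusted p = 0.536) that became 0.0748, 0.0760 and 0.1967 when cKO libraries 42, 44 and 41 were left out in turn.

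The group I member Grm5, which drives calcium release from internal stores, read 937, 839, 845 and 848 CPM in the P7 controls, against 802, 785, 907 and 848 CPM in cKO cortex. The groups overlapped, and the log2 fold change was -0.05 (SE 0.05, 95% interval -0.17 to 0.06, limma adjusted p = 0.736), with -0.0170 without control library 43 and -0.0949 without cKO library 44 as its extremes when single libraries were left out. Counted over the set, 4 of 6 members had all cKO libraries below all controls, namely Grm2, Grm3, Grm4 and Grm7, where 3.77% of all genes tested did so. Since the set was formed with these values known, nothing is read from that count.

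The P0 comparison asks the same of newborn cortex. None of the 6 members passed in limma, where 0.254% of the 12580 genes tested were called and 2276 had an unadjusted p under 0.05. Of the members, Grm5 and Grm8 had such an unadjusted p, and edgeR and DESeq2 called 0 of the 6. Grm8, a presynaptic receptor with high affinity for glutamate, came closest. It read 8.72, 8.86, 10.1 and 9.47 CPM in controls 1, 2, 5 and 6, against 6.02, 6.98, 6.48 and 7.75 CPM in cKO libraries 3, 4, 7 and 8, so that all cKO values lay below all controls, as for 4.5% of the genes tested. The log2 fold change was -0.40 (SE 0.13, 95% interval -0.69 to -0.11, limma adjusted p = 0.183), and it was -0.41 without control libraries 2 and 6. These values rest on 109 to 182 reads per library.

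Grm5 at P0 read 121, 133, 171 and 181 CPM in controls, against 199.6, 196, 192 and 176 CPM in cKO cortex. In 3 of 4 cKO libraries it was above every control, and the log2 fold change was 0.35 (SE 0.12, 95% interval 0.09 to 0.61, limma adjusted p = 0.193). Grm5 and Grm8 did pass at P0 in 1 limma fit over all 16 libraries, at adjusted p of 0.0431 and 0.0296. That fit called 794 of the 13444 genes tested. In that fit the 8 P7 libraries lend their spread to the P0 comparison.

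Grm2, Grm3, Grm7 and Grm4 overlapped between genotypes at P0. For Grm2 the controls read 38.0, 42.7, 44.8 and 52.2 CPM and the cKO cortex 48.7, 37.0, 44.6 and 40.3 CPM, with a log2 fold change of -0.06 (95% interval -0.32 to 0.21). Grm3 ran from 54.8 to 69.9 CPM in control and from 58.9 to 69.6 CPM in cKO libraries, and Grm7 from 31.7 to 56.0 CPM and from 39.9 to 47.9 CPM. The log2 fold change of Grm7 was 0.08, and 0.31 without control libraries 2 and 6. Grm4 read 5.98, 3.10, 7.24 and 3.40 CPM in controls 1, 2, 5 and 6, against 6.85, 5.87, 6.36 and 4.87 CPM in cKO cortex. Its 2 low controls were libraries 2 and 6, those that stood apart, and its log2 fold change of 0.29 was -0.13 without them.

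**Figure D3:**
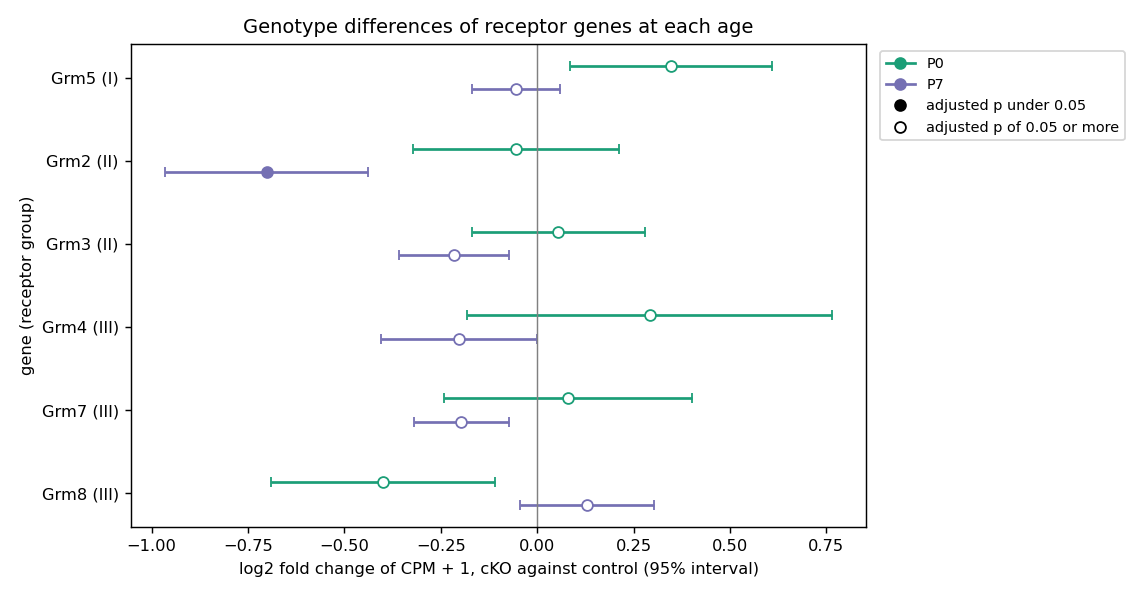
Points give the log2 fold change of CPM + 1 in cKO against control cortex at P0 and at P7 for the 6 members, with 95% intervals from limma (4 against 4 libraries); filled points have an adjusted p under 0.05 over all genes. Grm2 at P7 (-0.70) is filled, and Grm8 at P0 lies at -0.40 and at P7 at 0.13.

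Whether the genotype difference itself changed from P0 to P7 was asked in a fit over all 16 libraries, which called 0.751% of 13444 genes. None of the 6 members passed there in limma or edgeR, 4 of them had an unadjusted p under 0.05 (Grm2, Grm3, Grm5 and Grm8), as had 2095 of all genes tested, and DESeq2 called 2, Grm2 and Grm8, among 291 genes. The genotype difference of Grm2 was lower at P7 than at P0 by a log2 contrast of -0.65 (SE 0.18, 95% interval -1.02 to -0.27, limma adjusted p = 0.101). Grm8 had the contrast of opposite sign, 0.53 (SE 0.15, 95% interval 0.22 to 0.83, limma adjusted p = 0.0980), with a difference of -0.40 at P0 and of 0.13 at P7. Grm5, Grm3, Grm4 and Grm7 had contrasts of -0.40, -0.27, -0.49 and -0.28. Without P0 control libraries 2 and 6 the contrast of Grm7 was -0.51 and passed, at an adjusted p of 0.0377, and that of Grm4 was -0.08. Without P0 control library 1 alone the contrast of Grm7 was -0.15 and did not pass.

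Grm6, the receptor of retinal ON bipolar cells, had 0 to 3 reads in each P0 library and 0 reads in each P7 library. In the P7 libraries 3 reads, taken as an approximate upper limit from counting error for a count of 0, are 0.196 to 0.304 CPM.

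The genes around the receptors were taken from 3 lists, written with earlier results of these data known. At P0 none of the 21, 23 and 16 tested genes of the 3 lists passed in limma. Of them, 15 had an unadjusted p under 0.05, as had 2276 of all 12580 genes tested. For the age by genotype interaction none passed in limma either, and 17 had an unadjusted p under 0.05, as had 2095 of all 13444 genes tested. At P7, 6 genes passed and all 6 fell, where 2.05% of all genes were called lower. Next by limma adjusted p came Slc1a6 (0.0502), Dgkb (0.0621), Slc17a6 (0.0628), Slc7a11 (0.0658) and Rgs4 (0.0691). Of these uncalled genes Dgkb fell, at a log2 fold change of -0.34. Slc1a6, Slc17a6, Slc7a11 and Rgs4 rose, at 0.46, 0.30, 0.29 and 0.23. Among 21 genes of group I transduction and scaffolds 1 fell and 0 rose, the protein kinase C gene Prkcb, from 1332 ± 24.8 to 1146 ± 26.1 CPM (SD, n = 4), with a log2 fold change of -0.22 (SE 0.04, limma adjusted p = 0.00522). The median log2 fold change of that list was -0.02, against 0.03 over all genes tested. The scaffold genes Homer1, Homer2 and Homer3 had 0.06, -0.07 and 0.19 and did not pass.

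Among 24 genes of group II and III transduction and partners 4 fell at P7 and 0 rose, with a median of -0.02. The potassium channel subunit genes Kcnj3 and Kcnj9, whose channels are opened by Gi and Go proteins, fell from 191 ± 5.18 to 145 ± 11.7 CPM and from 36.1 ± 0.839 to 25.7 ± 3.21 CPM (SD, n = 4), with log2 fold changes of -0.40 (SE 0.06, limma adjusted p = 0.000785) and -0.48 (SE 0.09, limma adjusted p = 0.00386). Cacna1a, the pore of presynaptic P/Q-type calcium channels, fell from 237 ± 15.7 to 191 ± 14.9 CPM, and Adcy2, an adenylyl cyclase gene, from 106 ± 11.4 to 80.7 ± 8.58 CPM. Elfn1, whose protein binds group III receptors across the synapse, had log2 fold changes of 0.55 at P0 and -0.05 at P7 and did not pass. Of 16 genes of glutamate release, uptake and metabolism 1 fell, the astrocyte transporter gene Slc1a2, from 2120 ± 132 to 1762 ± 153 CPM, with a list median of -0.01.

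Of these 6 calls, that of Kcnj3 held under every alternative run, and those of Kcnj9, Cacna1a, Prkcb, Adcy2 and Slc1a2 were lost under 1, 2, 2, 4 and 7 of 17 alternatives. Leaving out control library 46 ended the calls of Adcy2, Cacna1a and Slc1a2, at adjusted p of 0.0737, 0.0504 and 0.0992. Control library 45 ended those of Adcy2 and Slc1a2, at 0.0618 and 0.0909, and cKO library 41 or 48 that of Slc1a2, at 0.0674 and 0.0654. Over all genes at P7 214 were called higher and 263 lower, a split that became 155 and 303 with scaling by medians of ratios.

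**Figure D4:**
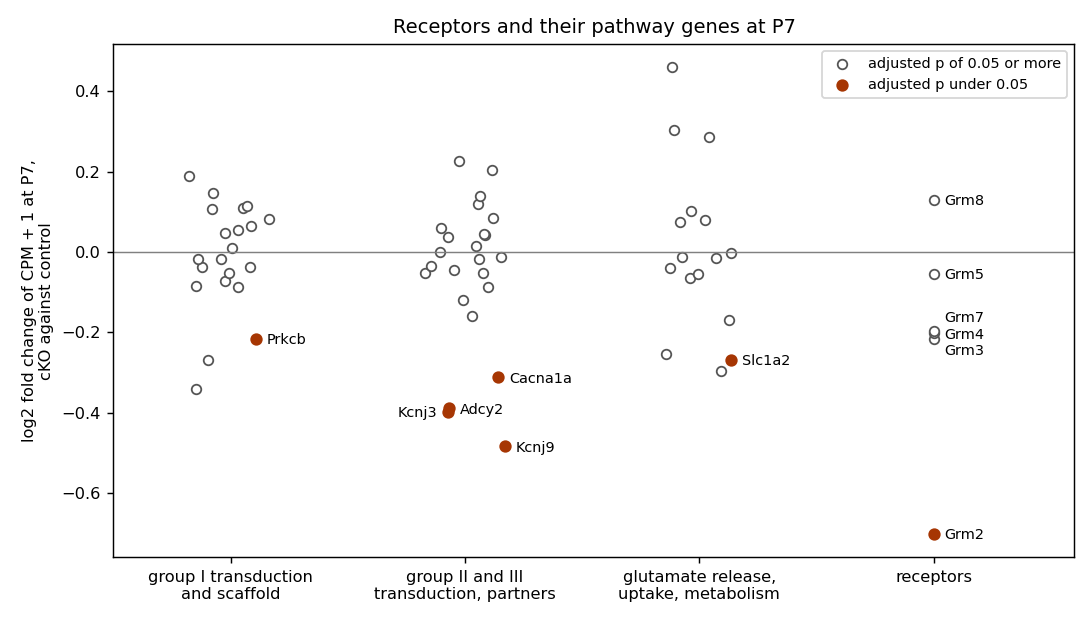
Points give the log2 fold change of CPM + 1 at P7 in cKO against control cortex for the tested genes of 3 pathway lists (spread sideways at random) and for the 6 members; filled points have a limma adjusted p under 0.05. The 6 filled pathway genes lie from -0.48 (Kcnj9) to -0.22 (Prkcb), and Grm2 is the filled receptor at -0.70.

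Marker genes of cortical excitatory neurons, all 10 of 10 above 1 CPM in at least 1 library of each group, summed to 3608 to 4536 CPM in P0 control, 3771 to 3893 in P0 cKO, 1815 to 2034 in P7 control and 1491 to 1833 CPM in P7 cKO libraries. The 6 cerebellar markers summed to 24.6 to 45.2 CPM over all libraries, with Pax2, Neurod1, Barhl1 and Gabra6 under 1 CPM in each. Neurod1 was listed at 0 in every library of both ages, and whether that is a true absence was not tested. Astrocyte markers, relevant to Grm3 and Grm5, summed to 608 to 759 CPM in P0 control and 851 to 955 in P0 cKO libraries, and to 1780 to 1863 and 1889 to 1924 CPM at P7. These sums were higher in cKO libraries at both ages without overlap, with 1 of 9 tested markers called at P0 (Sparcl1) and 0 of 10 at P7. Sparcl1 made up most of each sum, at a mean of 443 and 625 CPM at P0 and 1015 and 1104 CPM at P7 in control and cKO cortex. Aqp4 and Gfap rose at P0 too, with log2 fold changes of 0.85 and 0.71 (limma adjusted p = 0.105 and 0.0612). Other changes lay the other way, with log2 fold changes of -0.35 for Sox9 and -0.09 for Aldh1l1 at P0. At P7 the control and cKO means were 369 and 329 CPM for Aqp4 and 6.53 and 5.86 CPM for S100b. None of these was called within its age. In the age by genotype interaction Aqp4 was called, at -1.02 (limma adjusted p = 0.0294). The part of the astrocyte markers in the receptor values was not tested. Oligodendrocyte lineage markers summed to 209 to 287 and 279 to 310 CPM at P0 and to 318 to 339 and 318 to 353 CPM at P7, interneuron markers to 681 to 881 and 673 to 775 CPM and to 414 to 481 and 429 to 498 CPM, and microglia markers to 23.9 to 26.7 and 26.6 to 33.5 CPM and to 70.0 to 80.7 and 65.7 to 80.2 CPM (control before cKO), all overlapping. Striatal markers, from tissue below the cortex, summed to 174 to 269 and 140 to 191 CPM at P0 and to 198 to 456 and 235 to 384 CPM at P7, also overlapping. Their median log2 fold change was -0.48 at P0, 0.55 at P7 and 1.23 for the interaction, against 0.01, 0.03 and 0.02 over all genes. No striatal marker was called in these comparisons, and their part in the receptor values was not tested. Thalamic markers overlapped at P0 and were 353 to 356 CPM in P7 control and 220 to 249 CPM in P7 cKO libraries. There Rora, which cortical neurons express too, fell from a mean of 256 to 119 CPM, and Lhx2 rose from 73.4 to 88.5 CPM. The means of Prkcd, Tcf7l2 and Lhx9 were also higher in P7 cKO libraries, so the lower sum came from Rora. In the other lists at P7 the excitatory neuron genes Fezf2 and Rorb fell and the interneuron gene Npy rose. Rorb had means of 240 and 77.3 CPM in P7 control and cKO libraries, against 1893 and 1715 CPM for the excitatory sum.

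Genes whose values went with a member were ranked by Pearson's r over the 16 libraries on log2(CPM + 1), after the mean of each age was taken off, among 12001 genes. The points share library depth and genotype, and the coefficients are descriptions. For Grm2 the highest were Cdh12 (r = 0.85), a cadherin gene, Smim13 (0.83) and Rora (0.83), a nuclear receptor gene of thalamus and layer 4. Within the 8 P7 libraries these were 0.97, 0.93 and 0.91 and within the 8 P0 libraries 0.02, 0.47 and 0.43. The log2 fold changes at P7 were -0.57 for Cdh12 and -1.10 for Rora. For Grm3 the highest was Adcy1 (0.91), an adenylyl cyclase gene, followed by Slc25a3 (0.86) and Sar1b (0.82). For Grm5 these were Nalcn (0.91), a sodium leak channel gene, Htr5a (0.90) and Necab1 (0.89), of which Htr5a and Necab1 had -0.11 and 0.26 within the P7 libraries. For Grm7 they were Dpp10 (0.91), Frmpd1 (0.90) and Ror1 (0.84), for Grm8 Ppp2r2b (0.82), Sbds (0.81) and Paip2 (0.80), and for Grm4 Celf2 (0.91), Yars2 (0.90) and Slc16a7 (0.90). Within the P7 libraries Paip2 had 0.39 with Grm8, and Celf2 and Yars2 had 0.60 and 0.59 with Grm4, against 0.94, 0.94 and 0.94 within the P0 libraries, where control libraries 2 and 6 stood apart.

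In GRCm38 coordinates the members lie on 5 chromosomes, Grm3 on chromosome 5 (9485541 to 9725170, minus strand), Grm8 on chromosome 6 (27275119 to 28135178, minus), Grm7 on chromosome 6 (110645581 to 111567230, plus), Grm5 on chromosome 7 (87584168 to 88134907, plus), Grm2 on chromosome 9 (106643095 to 106656082, minus) and Grm4 on chromosome 17 (27422387 to 27521403, minus). Beside Grm2, exon overlap with other annotated genes was 2.2% of Grm7 on the opposite strand and 1.0% of Grm8 on the same strand, and 0 for the other 3. At most 1.37% of the 50-base stretches of these 5 genes occur in other genes.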

How the data were processed

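The authors deposited CPM (read counts scaled to a library's total) for 20841 genes. STAR, HTSeq and edgeR, and the builds mm10 and GRCm38, are named per the submitters' processing notes; their versions and the use of strand were not given in the sources used here. All values (100%) were whole multiples of 1 read to within 0.01 read, so reads were recovered. Listed genes made up 95.9% to 96.6% of the reads. No column was left unmapped.

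Log2(CPM + 1) values of each age (8 libraries) were fitted by limma (3.58.1, under R 4.3.3), with eBayes and a spread trend, where 4 or more libraries reached 1 CPM; age and interaction contrasts came from 1 fit over 16 libraries. P-values were Benjamini-Hochberg adjusted over all genes tested, and a gene was called under 0.05. Fold changes on this scale understate those of low genes. The limma genotype fits at P0 and P7 were run on simulated counts of a fixed spread, without libraries that stood apart. Age, interaction, edgeR and DESeq2 fits were not tested in this way. Alternatives were no filter, a filter at a mean of 5 CPM, pseudocounts of 0.1 and 0.5, medians of ratios, quantile normalization, edgeR 4.0.16 and DESeq2 1.42.0 on recovered reads, 1 fit over 16 libraries, and leaving out libraries. Read limits cover counting error only.

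The members, lists, markers and alternatives were chosen with earlier results of these data known. Named were the members, Foxp1, Grm6, the called list genes and the 3 genes most like each member. The list genes Homer1, Homer2, Homer3, Elfn1, Slc1a6, Dgkb, Slc17a6, Slc7a11 and Rgs4 were added after their values were seen. Annotation was GENCODE M21; 20374 symbols matched. Some genes that the rule or lists covered are not reported here, and list counts leave them out.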

Additional observations from a re-analysis of the deposited data

Results flagged for a closer look

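In the P7 control group, library 43 stood apart for Grm5, at 937.1 CPM with the others at 839 to 848 CPM, and library 46 for Grm8, at 73.47 CPM with the others at 66.6 to 67.2 CPM. In each case the gap to the nearest library was a share of the group's range (0.907 and 0.912) above Dixon's 95% critical value for 4 samples. Of 28 groups of 4 values examined so, 2 were beyond it, and chance gives about 1 in 20. Without library 43 the P7 difference of Grm5, and without library 46 that of Grm8, did not pass in limma either.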

How the results depend on the processing

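Grm2 at P7 was called under all 17 alternatives, with log2 fold changes from -0.78 to -0.59. The number of members called at P7, 1 as reported, was 2 with medians of ratios, 2 with edgeR and 3 with DESeq2. In that order, 458, 463 and 603 of all 12828 genes tested were called. When single libraries were left out the number ran from 1 to 3. It was 3 without cKO library 42, where 405 of 12731 genes were called. At P0 it was 0 as reported and 2 in 1 fit over all 16 libraries. For the age by genotype interaction it was 0 as reported, 2 with DESeq2 and 1 without P0 control libraries 2 and 6. All 6 members were called between P0 and P7 controls under every alternative. The P0 log2 fold change of Grm2 changed sign without control libraries 2 and 6, to 0.0402, and that of Grm4 to -0.13. Leaving out single libraries gave -0.13 to 0.0235 for Grm2, -0.0077 to 0.11 for Grm3 and -0.05 to 0.22 for Grm7 at P0. The cause was not tested. Over all genes the count of calls ran from 4 to 794 at P0, from 175 to 603 at P7 and from 45 to 361 for the interaction, against 32, 477 and 101 as reported. At P0 it was 7 with no filter, 429 by DESeq2, 794 in 1 fit, 118 without control libraries 2 and 6, 4 without cKO library 3 or 8 and 136 without control library 5. At P7 it was 175 in 1 fit and 281 without control library 46. For the interaction it was 54 with no filter, 291 by DESeq2, 175 without control libraries 2 and 6, 45 without P0 cKO library 3 and 361 without P0 control library 5. No paired analysis was run. Each library has its own number, so the numbers cannot show whether control and cKO libraries were paired, for example by litter.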
